A study of Mus musculus with 4 samples.

Results

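The 9 genes followed here are parts of the machinery by which cytotoxic lymphocytes kill: the granzymes Gzma, Gzmb, Gzmc, Gzmf, Gzmk and Gzmm, the pore former Prf1, the granule membrane protein Nkg7 and the death ligand Fasl. They were chosen by gene symbol, and all 9 symbols were found among the 32285 gene rows of the count tables. Their unique molecular identifiers (UMIs, 1 per captured transcript) were followed through 12 classes of liver leukocytes in 4 single-cell libraries.

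The libraries held CD45+ cells of the livers of female C57BL/6 mice and were made with 5′ single-cell chemistry. The first came from untreated wild-type mice of about 8 weeks (young WT). The other 3 came from mice that were given 25 mg/kg of the carcinogen diethylnitrosamine (DEN) on day 14, were weaned on day 21 onto a choline-deficient diet with 60% fat (CDHFD) and were taken at 36 weeks. These 3 differed by genotype: WT, miR-146a-/-, and miR-146a-/- Ccl5-/- (DKO). Each group is 1 library, and the sources used here do not give the number of mice in it, so no difference below has a replicate check and no p-value is given. Age, DEN and diet differ together between young WT and treated WT and cannot be told apart. Both deletions were in every cell of the animal, so that a value in a lymphocyte cannot be assigned to a loss in that cell.

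Cytotoxic lymphocytes store granzymes in granules on the proteoglycan serglycin and release them toward a bound target. Perforin opens the membrane, the granzymes enter, and their cuts in cellular proteins start death of the target. Fas ligand works by a separate route, through the receptor Fas on the target. In the liver, NK cells, resident ILC1 and CD8 T cells all carry these tools, and granzyme K marks a set of antigen-experienced T cells that gathers in inflamed and ageing tissue.

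After cell filters, 10283 young WT, 8329 WT, 7824 miR-146a-/- and 9850 DKO cells were kept, with medians of 6782 to 8210 UMIs per cell. A class was set by raw UMIs of lineage genes, without use of any of the 9 genes, and 21935 of the 36286 kept cells fell in the T, NK and ILC1 classes. Marker genes outside the gates were summed per class as a check of the labels. Summed T cell markers ran from 1338 to 1709 CPM (counts scaled to 1000000 per class) in PD-1+ CD8 T cells and from 23.3 to 47.1 CPM in B cells, summed NK markers from 1449 to 1893 CPM in NK cells and from 710 to 891 CPM in ILC1, and summed ILC1 markers from 1717 to 1961 CPM in ILC1 and from 223 to 543 CPM in NK cells. The ILC1 list does not set ILC1 apart from T cells, since NKT-like T cells held 1361 to 1664 CPM of it and B cells 789 to 925 CPM. The myeloid list (Fcer1g, Lyz2 and Tyrobp, of which NK cells and ILC1 also express Fcer1g and Tyrobp) was at 7246 to 14453 CPM in myeloid cells, 5176 to 6238 CPM in NK cells and 4779 to 5605 CPM in ILC1. Ccl5 was at 6174, 12544 and 12496 CPM in young WT, WT and miR-146a-/- cells and at 65.4 CPM in DKO cells. Any pair of libraries shared 96 to 127 cell barcodes. The microRNA itself was not analysed here.

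Sequences before the transcription start are shown first for 6 of the genes, because Gzma and Prf1 moved alike in PD-1+ CD8 T cells and because Gzmc and its neighbor Gzmf have start regions that resemble each other, while Gzmf was close to undetected. The bases were read from RefSeq promoter windows of GRCm38.p6, the build of the count tables, on the strand of the gene. The windows printed lie at chr13:113100982-113101131 (minus strand) for Gzma, chr10:61297686-61297832 (plus) for Prf1, chr7:43436988-43437072 (plus) for Nkg7, chr14:56262335-56262484 (minus) for Gzmb, chr14:56234658-56234807 (minus) for Gzmc and chr14:56211418-56211557 (minus) for Gzmf. Each begins 150 bases before the RefSeq start and ends before any base that the GENCODE gene covers. Capitals mark matches on either strand to TGTGGT (a RUNX-type motif), AGGTGT (T-box), TGANTCA (AP-1) or TGACGTCA (cyclic AMP response element, CRE):
Gzma: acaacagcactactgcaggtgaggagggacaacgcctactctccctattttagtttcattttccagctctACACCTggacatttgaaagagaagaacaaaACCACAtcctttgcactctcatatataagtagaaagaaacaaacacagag
Prf1: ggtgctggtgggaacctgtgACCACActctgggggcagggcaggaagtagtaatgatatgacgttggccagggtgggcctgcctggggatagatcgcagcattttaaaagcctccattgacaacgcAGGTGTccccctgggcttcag
Nkg7: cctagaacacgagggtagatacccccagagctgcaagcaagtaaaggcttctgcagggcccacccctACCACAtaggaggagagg
Gzmb: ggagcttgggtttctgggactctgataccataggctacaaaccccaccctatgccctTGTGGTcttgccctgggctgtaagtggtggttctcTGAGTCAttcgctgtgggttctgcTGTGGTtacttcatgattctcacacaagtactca
Gzmc: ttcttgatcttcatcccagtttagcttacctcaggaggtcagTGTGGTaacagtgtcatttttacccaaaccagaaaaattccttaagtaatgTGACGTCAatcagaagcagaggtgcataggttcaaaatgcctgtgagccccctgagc
Gzmf: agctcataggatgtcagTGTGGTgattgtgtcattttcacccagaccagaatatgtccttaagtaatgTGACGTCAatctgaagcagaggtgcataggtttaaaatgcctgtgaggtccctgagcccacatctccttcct

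The motifs were chosen after the levels had been seen, and no match overlapped another in these windows. In the full windows of 250 bases before to 50 bases after the start, 7 of the 9 genes held TGTGGT against 16.8% of all 32851 RefSeq windows, and 5 of the 9 held AGGTGT against 13.7%. Both were present in Gzma, Prf1, Nkg7 and Gzmc, against 2.85% of all windows. In Gzma the T-box match lay 80 and the RUNX match 50 bases before the start, in Prf1 they lay at 24 and 130 bases, and in Nkg7 at 14 and 83 bases, the first of these inside the GENCODE gene and so not printed. Gzmb held TGTGGT at 93 and 34 bases and alone held TGANTCA, at 58 bases, against 7.81% of all windows. Gzmc and Gzmf each held a TGACGTCA palindrome, at 57 and 82 bases, against 1.79% of all windows, and their windows were identical at 74.6% of 327 alignment columns, where Gzmb and Gzmc were identical at 49.2% of 356. The Fasl window held none of these letters and the Gzmk window only AGGTGT, at 232 and 169 bases. A match is a run of letters and not a measured binding site.

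**Figure D1:**
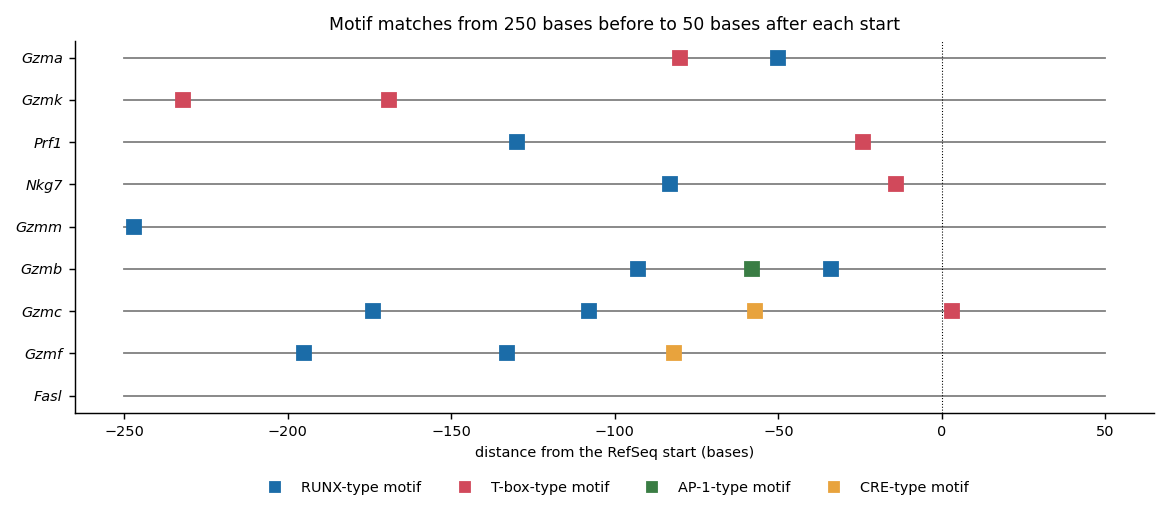
Motif matches in the RefSeq windows of the 9 genes. The horizontal axis is the distance from the RefSeq start in bases, each grey line is the window of 1 gene (both starts of Gzmm on 1 line), and each square is the first base of a match to 1 of 4 motifs. Gzma, Prf1, Nkg7 and Gzmc hold both RUNX-type and T-box-type matches, Gzmc and Gzmf hold the CRE-type palindrome, and Fasl holds none.

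The genes lie at few sites. In GENCODE annotation of GRCm38, Gzmb (chr14:56258838-56262260), Gzmc (chr14:56231441-56234656) and Gzmf (chr14:56205263-56211417) share the minus strand of 1 cluster on chromosome 14, and Gzma (chr13:113093825-113100981) and Gzmk (chr13:113171608-113225908) lie side by side on chromosome 13. Prf1 (chr10:61297833-61304680) and Gzmm (chr10:79689020-79695261) are both on chromosome 10, Nkg7 is at chr7:43437073-43438249 and Fasl at chr1:161780689-161788495. Among the longest coding transcripts of the 6 granzymes no stretch of 90 bases was shared, although Gzmc and Gzmf were identical at 70.8% of 967 alignment columns. None of the 6 shared such a stretch with the other cluster members Gzmd, Gzme, Gzmg and Gzmn.

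Each gene had its own order of cell classes, taken as CPM of the summed class in each library. CPM compares the same gene between classes, and not one gene with another. Gzma, a trypsin-like granzyme, was highest in NK cells at 10969 CPM (young WT), 7269 CPM (WT), 8129 CPM (miR-146a-/-) and 9171 CPM (DKO). No other class reached the lowest NK value: ILC1 followed at 732 to 2606 CPM and PD-1+ CD8 T cells at 804 to 3102 CPM, and these overlapped. Prf1 had the same first place, with 1415, 825, 948 and 981 CPM in NK cells of young WT, WT, miR-146a-/- and DKO against at most 309 CPM elsewhere.

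Gzmb, the aspartate-directed granzyme that acts on caspase targets, was spread over more classes. Its median over the 4 libraries was 2043 CPM in ILC1, 1440 in PD-1- non-naive CD8 T cells, 1155 in PD-1+ CD8 T cells and 1035 in NK cells, and the ranges of neighbors in this order overlapped. Nkg7, needed for full release of granule contents, was also broad, with medians of 4593 CPM in PD-1+ CD8 T cells, 3943 in NK cells and 2419 in ILC1, and fell below 500 CPM only in regulatory T cells (177 to 492), B cells and myeloid cells. Fasl was even across PD-1+ CD8 T cells, NK cells, PD-1- non-naive CD8 T cells and ILC1, with medians from 191 to 226 CPM, and was lowest among T classes in regulatory T cells at 8.64 to 60.5 CPM.

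By the median over the 4 libraries Gzmk was highest in PD-1+ CD8 T cells, and Gzmc was highest in ILC1. Gzmk was at 493 to 1157 CPM in PD-1+ CD8 T cells, 363 to 637 in PD-1- non-naive CD8 T cells and 80.1 to 927 in conventional CD4 T cells. In miR-146a-/- Gzmk was nearly level, at 927 CPM in conventional CD4 T cells and 918 CPM in PD-1+ CD8 T cells. In NK cells it was at 3.003 to 13.2 CPM and in ILC1 at 0.334 to 2.36 CPM, within or below the 3.42 to 13.5 CPM of B cells, taken here as background. Gzmc was highest in ILC1 at 228 CPM for young WT, 1022 for WT, 846 for miR-146a-/- and 622 for DKO, and did not pass 27.0 CPM in NK cells. Gzmm was highest in naive-like CD8 T cells, at 91.3 to 161 CPM, where the next class, γδ T cells, reached 50.04 CPM at most.

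Gzmf, the sixth granzyme, was at the floor. Its UMIs numbered 1 for young WT, 0 for WT, 2 for miR-146a-/- and 2 for DKO among 79464882 to 96747482 UMIs of kept cells, and none fell in NK cells or ILC1. No ratio was taken for it, and it passed the filter on low values in no comparison.

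**Figure D2:**
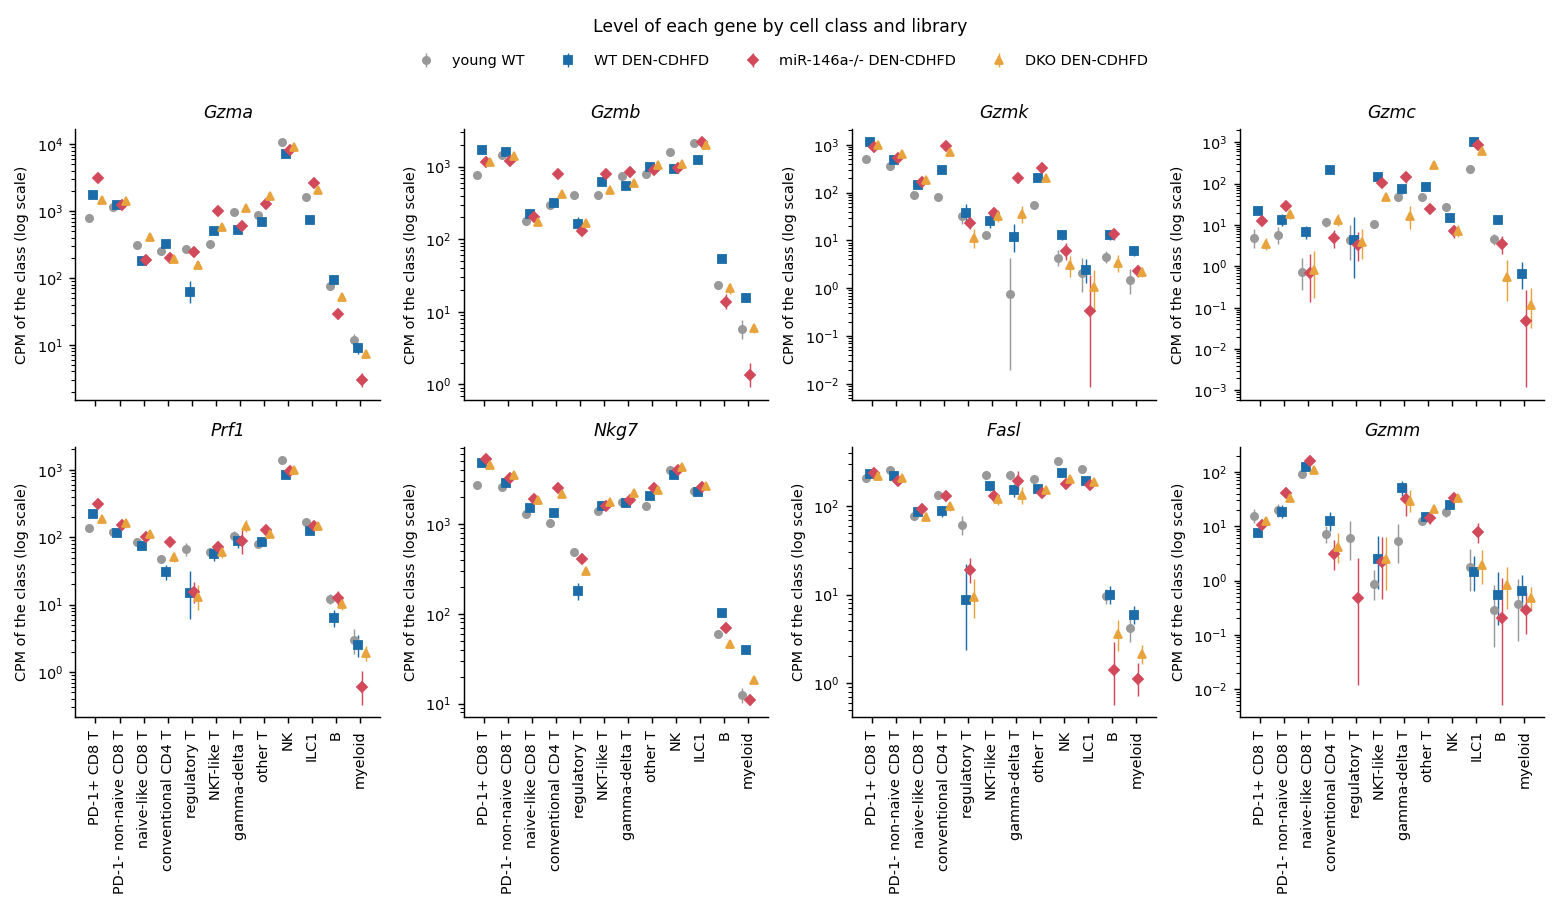
Level of 8 of the 9 genes in 12 cell classes (Gzmf, at 0 to 2 UMIs per library, is left out). The vertical axis is CPM of the summed class on a log scale, each symbol is 1 library, and bars are exact 95% Poisson intervals for counting error; a class with 0 UMIs has no symbol. Gzma and Prf1 peak in NK cells, Gzmc in ILC1 and Gzmm in naive-like CD8 T cells, and B and myeloid cells lie lowest for most genes. Gzmk peaks in PD-1+ CD8 T cells except in miR-146a-/-, where it is nearly level, at 918 CPM there and 927 CPM in conventional CD4 T cells.

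Likeness between genes was taken over 40 sums of 10 classes in 4 libraries, which share libraries and depth, so the values only describe these sums. Gzma was most like Prf1 (Pearson r = 0.96) and least like Gzmk (r = 0.23). Gzmb lay close to Fasl (r = 0.97) and Nkg7 (r = 0.96), and for Gzmk and Gzmc r was -0.08. Among 5371 genes outside the set, the nearest were Chsy1, Dapk2 and Nup210 for Gzma (r = 0.96 to 0.94), Gm14029, Dapk2 and H2-K1 for Gzmb (0.98 to 0.96), Sema6d, Prpf8 and Mfsd10 for Gzmc (0.87 to 0.84), and Zdhhc2, Sdcbp2 and A430093F15Rik for Gzmk (0.96 to 0.91). For Prf1 they were Sytl3, Camk2n1 and Nup210 (0.94 to 0.93), for Nkg7 Cst7, Gnptg and Sh2d2a (all 0.98), for Fasl Gm14029, Crim1 and Ifitm10 (0.98 to 0.97) and for Gzmm Atp11b, Igf2r and Glipr2 (0.88 to 0.83).

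For Gzma and Prf1 the class that held most transcripts was NK cells in 3 libraries and PD-1+ CD8 T cells in miR-146a-/-. For Gzmk it was PD-1+ CD8 T cells, for Gzmc ILC1 and for Gzmm naive-like CD8 T cells in all 4. The Prf1 shares in miR-146a-/- were close, at 36.4% in PD-1+ CD8 T cells and 35.7% in NK cells. NK cells held 68.5% of all Gzma UMIs for young WT, 43.8% for WT, 34.0% for miR-146a-/- and 50.03% for DKO, and PD-1+ CD8 T cells held 2.36%, 29.7%, 40.6% and 15.9%. These shares follow class sizes as well as levels: PD-1+ CD8 T cells were 3.59% of kept cells for young WT, 19.3% for WT, 21.2% for miR-146a-/- and 14.8% for DKO. For Gzmb the PD-1+ CD8 share was 5.37%, 42.6%, 36.5% and 28.0%, and for Gzmk it was 30.7%, 68.4%, 57.1% and 58.5%. For Gzmc, ILC1 held 40.1%, 70.7%, 78.2% and 57.9%, and T cells in none of the named subclasses held 26.8%, 8.67%, 4.07% and 33.7%.

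**Figure D3:**
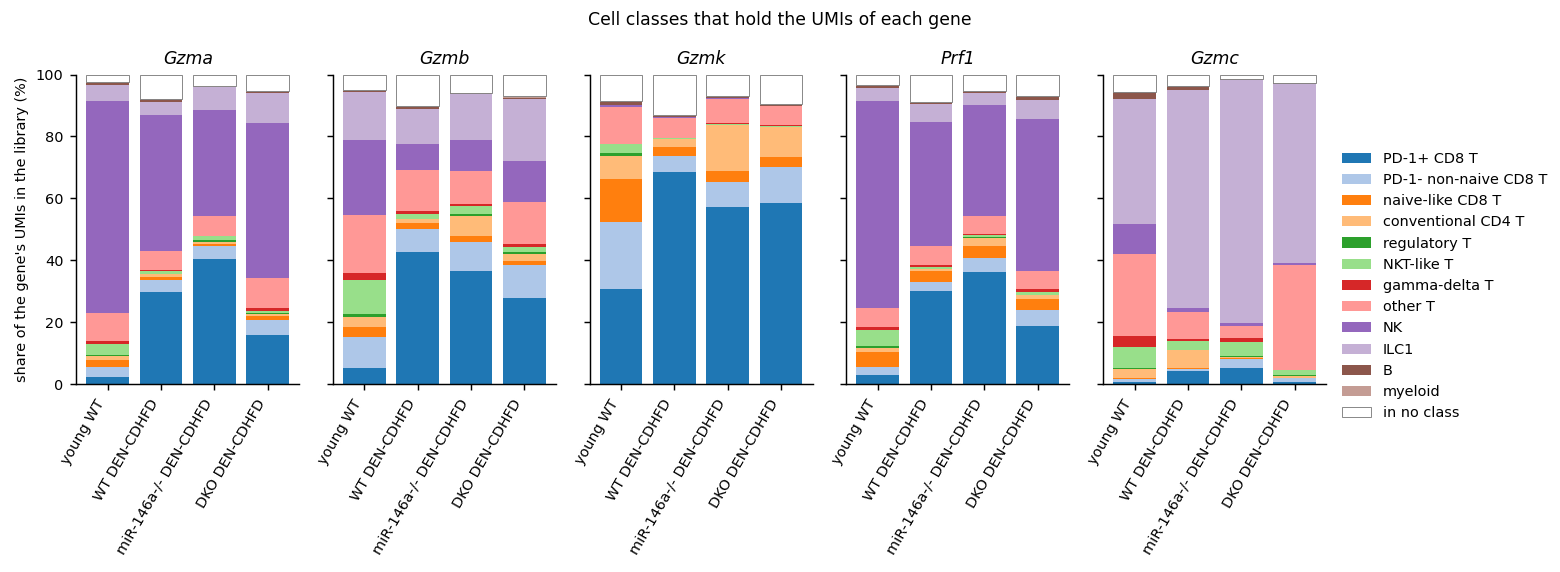
Cell classes that hold the UMIs of Gzma, Gzmb, Gzmk, Prf1 and Gzmc. The vertical axis is the percent of the gene's UMIs among kept cells of a library, each bar is 1 library and each color 1 class, with cells in no class in white. The NK share of Gzma is 68.5% in young WT and 34.0% in miR-146a-/-, and the PD-1+ CD8 share rises from 2.36% to 40.6%.

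The first comparison asked how the killing genes of a class differed between treated, older WT livers and young WT livers. A gene is called higher or lower below where the ratio of CPM reached 1.5-fold among genes with a mean of at least 10 CPM and at least 20 UMIs in both libraries together. Intervals are exact 95% intervals for counting error only.

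In PD-1+ CD8 T cells, antigen-experienced cells that carry the inhibitory receptor PD-1, most of the set was higher in treated WT. Gzma was at 804 CPM in young WT and 1762 CPM in WT, a log2 ratio of 1.13 (interval 1.07 to 1.19). Gzmb was at 761 and 1689 CPM (log2 ratio 1.15, 1.09 to 1.21), and Gzmk at 493 and 1157 CPM (1.23, 1.16 to 1.31). Nkg7 went from 2671 to 4709 CPM (0.82) and Prf1 from 136 to 222 CPM (0.70, 0.56 to 0.85). Fasl was at 209 and 231 CPM (0.14) and was not called. Of the 8 genes past the filter 6 were higher and 1, Gzmm, was lower (15.7 and 7.51 CPM), where 6.46% of 8264 genes were higher and 6.04% lower. The median log2 ratio of the 8 was 0.97 against -0.02 over all 8264 genes. Markers of other cells also differed in this class: over young WT, WT, miR-146a-/- and DKO the summed NK list was at 320, 151, 95.4 and 117 CPM, the myeloid list at 652, 1191, 699 and 1072 CPM and 4 macrophage markers at 38.5, 205, 95.8 and 183 CPM. Their part in the ratios was not tested.

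Gzmc was also called higher in this class, at 4.93 and 22.1 CPM, but it rested on few cells. A Gzmc UMI was seen in 1.08% of WT cells thinned to 3000 UMIs, and without the cells that had a UMI of the NK receptor gene Ncr1 the log2 ratio of 2.15 became -0.61. Without cycling cells, those with a UMI of Mki67 or Top2a, it became -0.27.

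NK cells went the other way. Gzma was lower in WT, at 7269 against 10969 CPM (log2 ratio -0.59, -0.61 to -0.58), close to the 1.5-fold line and past it in 8 of 12 alternatives. Gzmb was at 940 against 1614 CPM (-0.78, -0.83 to -0.73) and Prf1 at 825 against 1415 CPM (-0.78, -0.83 to -0.73). Nkg7 stayed nearer, at 3967 and 3455 CPM (-0.20), and Fasl was at 327 and 237 CPM (-0.46). Of 7 genes past the filter 4 were lower and none higher, against 2.45% lower and 3.91% higher among 8011 genes. In the NK class the summed ILC1 list was at 223, 436, 543 and 487 CPM over young WT, WT, miR-146a-/- and DKO, and the NK list at 1893, 1449, 1517 and 1692 CPM. When NK cells and ILC1 were split by Eomes and Cxcr6 only, the log2 ratios of WT over young WT were -0.68 for Gzma, -0.78 for Gzmb and -0.84 for Prf1, and the part of the ILC1 markers was not tested further. The fourth gene called, Gzmc, had 187 and 83 UMIs, and its direction turned when cells were thinned before gating.

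In ILC1 Gzma and Gzmb were also lower, and Gzmc was higher. Gzma was at 1655 and 732 CPM (-1.18, -1.24 to -1.12) and Gzmb at 2085 and 1247 CPM (-0.74, -0.79 to -0.69). Gzmc was at 228 and 1022 CPM (2.17, 2.06 to 2.28). Nkg7 was at 2293 and 2234 CPM (-0.04) and Prf1 at 167 and 124 CPM (-0.43). Of 6 genes past the filter 1 was higher and 2 were lower, where 3.87% of 8270 genes were higher and 4.0% lower. Other markers also differed in the ILC1 class. Over young WT, WT, miR-146a-/- and DKO the NK list was at 891, 710, 757 and 775 CPM. The red cell sum was 49.5, 1.09, 0.668 and 1.68 CPM, and 3 cycling markers summed to 142, 331, 149 and 156 CPM. Their part in the ratios was not tested. The Gzmc difference was seen in the share of cells and in UMIs per cell: 13.0% of young WT and 28.1% of WT cells thinned to 3000 UMIs had a UMI, with means of 5.03 and 10.1 UMIs in those cells.

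Conventional CD4 T cells, the smallest of these classes in WT with 263 cells, had 2 of 7 genes past the filter higher, Gzmk (80.1 and 291 CPM, log2 ratio 1.86) and Gzmc, and 2 lower, Prf1 (47.0 and 30.2 CPM, -0.64) and Fasl (132 and 87.6 CPM, -0.59). Among 8453 genes 4.79% were higher and 3.60% lower. The Gzmc level of 209 CPM in WT came from 3 of 251 thinned cells with a mean of 47.3 UMIs each. NKT-like T cells, set by a UMI of Zbtb16, were 15.2% of kept cells in young WT and 2.03% in WT. Such cells without a Zbtb16 UMI could fall in the CD4 class, and their part in these ratios was not tested.

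The second comparison set miR-146a-/- against WT, both DEN-CDHFD, and so asked what the loss of this microRNA, a brake on NF-κB signaling, went with. In PD-1+ CD8 T cells Gzma was higher again, at 3102 CPM in miR-146a-/- against 1762 CPM in WT (log2 ratio 0.82, 0.79 to 0.84), and Prf1 leaned the same way at 309 and 222 CPM (0.48, 0.41 to 0.54) without reaching 1.5-fold. Gzmb was at 1158 and 1689 CPM (-0.54, -0.57 to -0.52) and Gzmk at 918 and 1157 CPM (-0.33), neither past 1.5-fold. Nkg7 (5211 and 4709 CPM) and Fasl (239 and 231 CPM) differed by at most 0.15 on the log2 scale. With Gzma higher and Gzmc lower (12.5 and 22.1 CPM), 2 of 7 genes past the filter were called, where 3.0% of 8253 genes were higher and 4.83% lower. The count of 2 became 1 in 4 alternatives that change the cells or the background, and the Gzmc ratio of -0.81 was -0.01 with the B-cell level subtracted.

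NK cells of these libraries were close. Gzma was at 8129 and 7269 CPM (0.16), Gzmb at 972 and 940 CPM (0.05), Prf1 at 948 and 825 CPM (0.20) and Fasl at 176 and 237 CPM (-0.43). Of 7 genes past the filter only Gzmc was called, lower (-1.07) on 31 and 83 UMIs. Its ratio was past 1.5-fold with the same sign in 11 of 12 alternatives and was 0.80 with the B-cell level subtracted. With a lower limit on features (-2.15) or cells thinned before gating (-2.38) it no longer passed the filter on low values. Of 8064 genes 3.14% were higher and 4.12% lower.

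ILC1 gave the largest Gzma ratio of the PD-1+ CD8, NK and ILC1 classes. Gzma was at 2606 CPM in miR-146a-/- and 732 CPM in WT (1.83, 1.78 to 1.89), and Gzmb at 2170 and 1247 CPM (0.80, 0.75 to 0.85). In young WT they were at 1655 and 2085 CPM. A Gzma UMI was seen in 39.4% of thinned miR-146a-/- ILC1 and 17.9% of WT ILC1, against 2.38% and 2.53% of B cells. Gzmc (846 and 1022 CPM), Prf1 (147 and 124 CPM) and Nkg7 (2544 and 2234 CPM) stayed within 1.5-fold. Of 6 genes past the filter 2 were higher and none lower, against 2.58% and 4.29% of 8267 genes.

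In conventional CD4 T cells, where killing genes are usually low, 4 of 7 genes past the filter were higher in miR-146a-/-. Gzmk was at 927 CPM against 291 CPM in WT (log2 ratio 1.67, 1.55 to 1.79), Gzmb at 792 and 319 CPM (1.31, 1.19 to 1.43), Prf1 at 83.8 and 30.2 CPM (1.47, 1.09 to 1.87) and Nkg7 at 2529 and 1322 CPM (0.94, 0.88 to 1.00). Gzma was lower, at 201 and 322 CPM (-0.68), a direction that turned to 0.48 when cells were thinned before gating, and Gzmc was lower through the 3 WT cells named above. Among 8397 genes 4.19% were higher and 7.35% lower.

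The Gzmk difference in CD4 T cells was seen in how many cells had it. A Gzmk UMI was seen in 10.7% of thinned CD4 T cells for young WT, 24.3% for WT, 60.9% for miR-146a-/- and 48.2% for DKO, against at most 1.98% of B cells. Median depth before thinning was 6392 to 6947 UMIs in the CD4 class and 5767 to 7354 in B cells, and without thinning the shares were 15.2%, 30.0%, 63.6% and 54.6%. Gzmb was seen in 59.1% of cells with and 17.05% of cells without a Gzmk UMI in miR-146a-/-, and in 48.6% and 19.5% in DKO. In WT the same shares were 21.3% and 18.4%, and in young WT 16.9% and 21.5%, with overlapping intervals.

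Neutrophil transcripts differed between the libraries in this class. The summed level of 4 markers (S100a8, S100a9, Retnlg and Mmp8) was 29.8 CPM for young WT, 2.67 for WT, 1254 for miR-146a-/- and 1171 for DKO. In PD-1+ CD8 T cells it was 0.616, 55.1, 709 and 296 CPM, while NK cells and ILC1 stayed at 22.9 CPM or less. Red cell transcripts (2 markers summed) also moved, at 0, 22.5, 477 and 250 CPM in PD-1+ CD8 T cells and 774, 0.444, 1311 and 6.05 CPM in CD4 T cells. In CD4 T cells the NK list was at 131, 137, 45.7 and 117 CPM and the myeloid list at 356, 793, 446 and 984 CPM in the same order of libraries. In young WT NK cells the red cell sum was 307 CPM, against at most 1.38 CPM in the treated libraries. The part of the red cell, NK and myeloid transcripts in the ratios was not tested. Without cells that had 3 or more UMIs of S100a8 and S100a9, the CD4 log2 ratio for Gzmk was 1.68, for Gzmb 1.24, for Prf1 1.48 and for Nkg7 0.95. This exclusion left 457 of 462 CD4 T cells in miR-146a-/- and 263 of 263 in WT. When CD4 cells with any UMI of another lineage were left out, Gzmb was at 0.61 and Gzmk at 1.37.

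The third comparison set DKO against miR-146a-/-, both DEN-CDHFD, and asked what the added loss of the chemokine Ccl5 went with. In PD-1+ CD8 T cells Gzma was at 1448 CPM in DKO against 3102 CPM (log2 ratio -1.10, -1.13 to -1.07) and Prf1 at 187 against 309 CPM (-0.72, -0.80 to -0.64). Gzmb was at 1152 and 1158 CPM (-0.01, -0.04 to 0.03). Gzmk (993 and 918 CPM), Nkg7 (4477 and 5211 CPM) and Fasl (221 and 239 CPM) differed by at most 0.22 on the log2 scale. So 2 of 7 genes past the filter were lower and none higher, where 1.52% of 8239 genes were lower and 2.44% higher. Both lower genes ended below their treated WT levels of 1762 and 222 CPM.

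NK cells and ILC1 showed no called gene here. In NK cells the log2 ratios of the 6 genes past the filter ran from -0.03 for Gzmm to 0.21 for Fasl, with 1.04% of 8094 genes higher and 1.21% lower. In ILC1 they ran from -0.44 for Gzmc (622 and 846 CPM) to 0.14 for Fasl, with 1.56% of 8225 genes higher and 1.17% lower. In CD4 T cells Gzmb (422 and 792 CPM, -0.91) and Prf1 (50.7 and 83.8 CPM, -0.72) were lower, 2 of 6 genes past the filter, with 2.25% of 8367 genes lower and 3.74% higher.

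**Figure D4:**
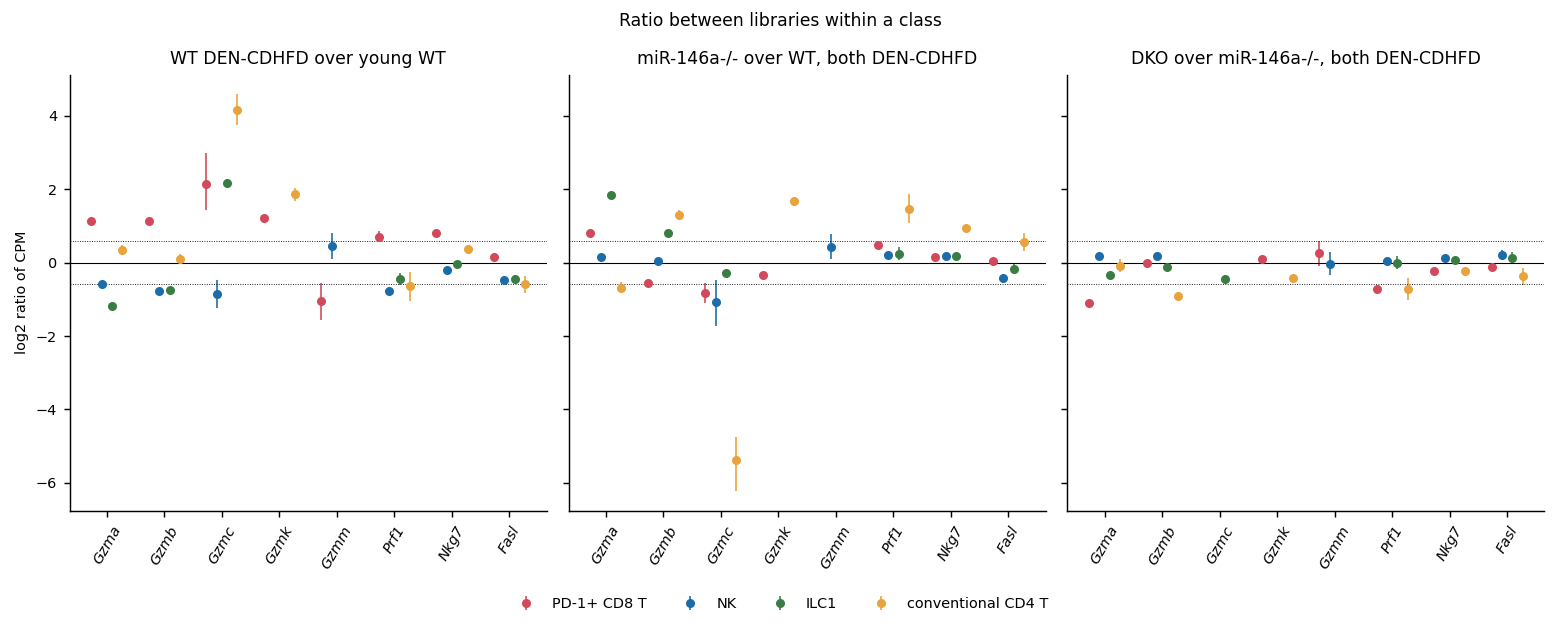
Log2 ratio of CPM between libraries for each gene past the filter on low values, in 4 classes. Each panel is 1 comparison, points are ratios, bars are exact 95% intervals for counting error, and dotted lines mark 1.5-fold. In the left panel Gzma, Gzmb and Prf1 lie above 0 in PD-1+ CD8 T cells and below 0 in NK cells, in the middle panel Gzma is above 1.5-fold in PD-1+ CD8 T cells and ILC1, and in the right panel Gzma and Prf1 are below it in PD-1+ CD8 T cells.

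The Gzma changes of PD-1+ CD8 T cells lay both in the share of cells and in the amount per cell. In cells thinned to 3000 UMIs, a Gzma UMI was seen in 24.5% (20.1 to 29.2) for young WT, 37.9% (35.5 to 40.4) for WT, 43.5% (41.0 to 45.9) for miR-146a-/- and 31.1% (28.7 to 33.6) for DKO. Cells with a UMI held means of 9.25, 16.0, 24.2 and 15.1 UMIs. B cells had a UMI in 1.49% to 3.98%. A Gzmk UMI was in 54.9%, 89.9%, 86.8% and 88.9% of these cells and a Gzmb UMI in 52.2%, 82.7%, 73.9% and 70.6%, shares that are not compared between genes.

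Within the class the granzymes overlapped in part. Among WT PD-1+ CD8 T cells with a Gzma UMI 92.0% also had a Gzmb UMI, against 77.1% of those without, and in miR-146a-/- the shares were 86.9% and 63.8%. Prf1 was seen in 58.7% of miR-146a-/- cells with and 49.2% without a Gzma UMI, where WT had 45.2% and 45.9%. The same shares were 44.9% and 29.1% in young WT and 45.6% and 39.9% in DKO. Gzma was seen in 28.5% of young WT, 39.1% of WT and 45.5% of miR-146a-/- cells with a Gzmk UMI, against 19.5%, 27.7% and 30.4% without. In DKO these shares were 30.9% and 32.7%.

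The share of thinned NK cells with a Gzma UMI was 94.99% for young WT, 85.8% for WT, 71.7% for miR-146a-/- and 78.4% for DKO. The miR-146a-/- share was below WT while its CPM was above, so no order of these 2 libraries is read from the share. Cells with a UMI held means of 37.5, 28.2, 38.0 and 39.4 UMIs. Gzmb and Prf1 followed Gzma within NK cells: in miR-146a-/- a Gzmb UMI was in 80.8% of cells with and 10.9% of cells without a Gzma UMI, and a Prf1 UMI in 85.4% and 34.5%.

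**Figure D5:**
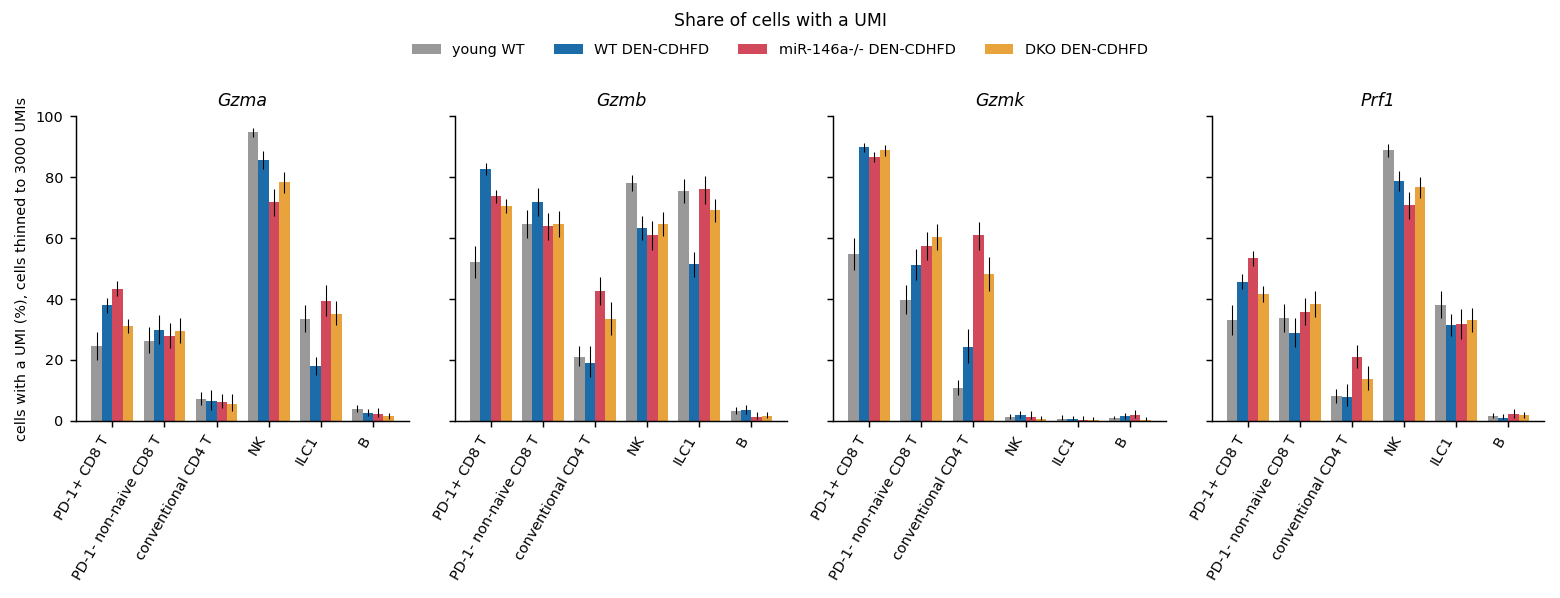
Percent of cells with a UMI of Gzma, Gzmb, Gzmk or Prf1 after each cell was thinned to 3000 UMIs. Bars are libraries grouped by class, error bars are exact 95% binomial intervals for counting error, and B cells give the background. Gzmk is in 60.9% of miR-146a-/- and 24.3% of WT conventional CD4 T cells, and Gzma in 43.5% of miR-146a-/- and 31.1% of DKO PD-1+ CD8 T cells.

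Cycling cells differed between the libraries in the same class. The share of PD-1+ CD8 T cells with a UMI of Mki67 or Top2a was 24.9% for young WT, 45.1% for WT, 25.8% for miR-146a-/- and 29.8% for DKO. In young WT Gzma was at 1008 CPM in cycling and 711 CPM in other cells. The treated libraries had the other order. In WT Gzma was at 1366 CPM in cycling and 2232 CPM in other cells, in miR-146a-/- at 2197 and 3557 CPM, and in DKO at 1154 and 1647 CPM. Gzmb was nearly level in WT, at 1619 and 1772 CPM. Without cycling cells the log2 ratio of Gzma was 0.67 for miR-146a-/- over WT.

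In PD-1- non-naive CD8 T cells Gzma lay within a narrow range, at 1161 CPM in young WT, 1237 in WT, 1230 with miR-146a-/- and 1420 CPM in DKO, and no comparison reached 1.5-fold (log2 ratios 0.09, -0.01 and 0.21). In this class neutrophil markers were at 1.28, 2.03, 15.01 and 574 CPM and red cell markers at 554, 0.338, 1.18 and 771 CPM. In naive-like CD8 T cells Gzma was at 317, 182, 184 and 409 CPM, and red cell markers were at 0.617, 422, 0.451 and 1055 CPM. In NKT-like T cells Gzma was at 318, 511, 996 and 577 CPM in young WT, WT, miR-146a-/- and DKO, the order it had in PD-1+ CD8 T cells apart from DKO standing above WT. There the NK list was at 260, 518, 439 and 445 CPM and the myeloid list at 489, 1209, 1754 and 1685 CPM. In regulatory T cells, 47 to 236 per library, Gzmb was at 407, 160, 130 and 170 CPM. In T cells outside the named subclasses Gzmc was at 47.0, 83.7, 24.8 and 286 CPM, and 96.8% of the DKO UMIs lay in 5% of the cells. In γδ T cells, 35 in miR-146a-/-, Gzmk was at 0.760, 11.9, 206 and 35.5 CPM, and the summed neutrophil markers were at 0, 1.19, 3947 and 3072 CPM. The same markers were at 1403 CPM in miR-146a-/- T cells outside the named subclasses and at 978 CPM in DKO regulatory T cells. Their part in these levels was not tested.

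A list of 24 further genes of the same pathway was counted by the same rule. In PD-1+ CD8 T cells 18 passed the filter, and 7 were higher and 3 lower in WT than in young WT, where 6.46% of all genes tested were higher and 6.04% lower. The higher genes were the granule proteoglycan Srgn (1405 and 877 CPM, log2 ratio 0.68), the granzyme-activating protease Ctsc (187 and 97.6 CPM, 0.94), its inhibitor Cst7 (602 and 273 CPM, 1.14), the docking and fusion genes Rab27a (0.61) and Vamp8 (0.64), and the serpins Serpinb6a (1.02) and Serpinb6b (0.60). Lower were the cathepsin Ctsw (386 and 654 CPM, -0.76) and the cytokine genes Tnfsf10 (-0.62) and Tnf (-0.90). The median of the 18 was 0.13, against -0.02 over all genes.

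For miR-146a-/- over WT in this class, Ctsw was higher (620 and 386 CPM, 0.68), Srgn was lower (778 and 1405 CPM, -0.85) and the other 16 were not called, where 3.0% of all genes were higher and 4.83% lower. None of the 18 was called for DKO over miR-146a-/-. Gzmd, Gzme, Gzmg and Gzmn passed the filter in no class of the 4.

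In NK cells 19 of the 24 passed. Over young WT, WT had higher Tnfsf10 (0.87), Tnf (1.14) and Fas (0.98), each under 20 CPM, and lower Serpinb9b (50.9 and 129 CPM, -1.34), a relative of the granzyme B inhibitor, where 3.91% of all genes were higher and 2.45% lower. Tnf was at 8.82, 19.6, 34.8 and 10.6 CPM over young WT, WT, miR-146a-/- and DKO, higher in the second comparison and lower in the third. Serpinb6a was higher (0.62) and Serpinb9b lower (-0.78) in miR-146a-/- than in WT, where with Tnf 3 of the 19 were called and 3.14% of all genes were higher and 4.12% lower. Tnf was the 1 gene of the 19 called for DKO over miR-146a-/-, against 1.04% of all genes higher and 1.21% lower.

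In ILC1 Fas (9.09 and 27.5 CPM, 1.58), Lta (1.68) and Serpinb6a (0.69) were higher in WT than in young WT, 3 of 19 past the filter, where 3.87% of all genes were higher and 4.0% lower. Tnf, at 84.2 CPM in WT, was lower at 39.4 CPM with miR-146a-/- and lower again at 24.4 CPM in DKO, and Stx11 (-0.65) and Lta (-1.19) were also lower in miR-146a-/- than in WT, where 4.29% of all genes were lower and 2.58% higher. Lta was higher in DKO than in miR-146a-/- (1.00), where 1.56% of all genes were higher and 1.17% lower. In CD4 T cells of miR-146a-/- Cst7 (0.76), Rab27a (0.59) and Vamp7 (0.63) were higher and Lyst (-0.67), Lamp1 (-0.70) and Serpinb9 (-1.14) lower than in WT, 6 of 19 past the filter, where 4.19% of all genes were higher and 7.35% lower.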

How the data were processed

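CD45+ liver cells of 4 groups, 1 library each, were analysed. The deposited files hold raw UMI counts per gene and cell, which the authors made with Cell Ranger 7.0.1 against mm10 per the labels (the methods text of the study names another release). Deposited totals were 88706063 to 103165826 UMIs per library. Following the study, a cell needed between 600 and 6000 detected genes and no more than 5% of its UMIs from mitochondria. Classes were gated on raw UMIs of lineage genes, with at least 3 UMIs of a lineage and 3 times any other, which leaves out some mixed droplets but left neutrophil, macrophage and red cell transcripts in several classes; no doublet caller was run. UMIs were summed per class and library, scaled to CPM, and ratios taken with a prior of 0.5 counts. Intervals (Poisson, Clopper-Pearson, 95%) cover counting error only. Shares of cells with a UMI used cells thinned to 3000 UMIs, and 3 counts is the floor for a zero.

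Genes named are the 9 members, a list of 24 pathway genes where called, and for each member the 3 genes most like it by Pearson r of log2(CPM + 1). The members and lists were chosen with earlier results of these data known, and the motifs, the neutrophil and Ncr1 exclusions and the CD4 alternatives after the data had been seen. Scripts were tested on simulated counts and used Python 3.11.15, scipy 1.17.1, Biopython 1.88 and, for TMM factors, edgeR 4.0.16. With 1 library per group no test between groups was possible. RefSeq windows matched all 9 members, with 2 starts for Gzmm.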

Additional observations from a re-analysis of the deposited data

Results flagged for a closer look

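Several genes stood past 1.5-fold in opposite directions in 2 cell classes of the same comparison. With 1 library per group the difference between classes was not tested.

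In WT DEN-CDHFD over young WT, the log2 ratio of Gzma was 1.13 in PD-1+ CD8 T cells against -0.59 in NK cells and -1.18 in ILC1. For Gzmb it was 1.15 in PD-1+ CD8 T cells against -0.78 in NK cells and -0.74 in ILC1. For Prf1 it was 0.70 in PD-1+ CD8 T cells against -0.78 in NK cells and -0.64 in conventional CD4 T cells. For Gzmc it was 2.15 in PD-1+ CD8 T cells, 2.17 in ILC1 and 4.15 in conventional CD4 T cells against -0.84 in NK cells, where 176 thinned WT cells had a Gzmc UMI in ILC1 and 3 to 17 in each of the other classes. Over 12 alternatives the Gzmc value ran from -0.61 to 4.73 in PD-1+ CD8 T cells and from -3.41 to 3.15 in NK cells, so that neither direction held in all of them.

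In miR-146a-/- over WT, the log2 ratio of Gzma was 0.82 in PD-1+ CD8 T cells and 1.83 in ILC1 against -0.68 in conventional CD4 T cells. The CD4 value was 0.48, the same direction as the others, when cells were thinned before gating.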

How the results depend on the processing

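Of 66 log2 ratios of the 9 genes that were recomputed, 27 were past 1.5-fold, 23 of these kept their sign in every alternative run for them (12 each, 3 in CD4 T cells) and 18 stayed past 1.5-fold. In CD4 T cells only miR-146a-/- over WT was recomputed, and only ratios already past 1.5-fold, so these counts include CD4 ratios picked for being called. Gzma, Gzmb, Gzmk and Nkg7 in PD-1+ CD8 T cells (WT over young WT), Gzma there in the other comparisons and Gzma and Gzmb in ILC1 were among the 18. The log2 ratio of Gzma for DKO over miR-146a-/- in PD-1+ CD8 T cells ran from -1.25 to -1.06. In NK cells, WT over young WT, Gzma ran from -0.70 to -0.51 and was past 1.5-fold in 8 of 12 alternatives. Prf1 in the same comparison was past it in 11 of 12 in NK cells (-0.84 to -0.58) and in PD-1+ CD8 T cells (0.58 to 0.96). So was Gzmm in PD-1+ CD8 T cells, in 11 of 12 (-2.69 to -0.52). Signs turned for Gzmc in PD-1+ CD8 T cells, WT over young WT, without cycling cells (-0.27) and without cells with an Ncr1 UMI (-0.61), for Gzmc in NK cells when cells were thinned before gating (3.15, WT over young WT) or the B-cell level was subtracted (0.80, miR-146a-/- over WT), and for Gzma in conventional CD4 T cells when thinned before gating (0.48, miR-146a-/- over WT). The cause was not tested.

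Of 129 recomputed counts of genes past 1.5-fold, 112 were within 1.5 times the first value and 17 were not. In PD-1+ CD8 T cells, miR-146a-/- over WT, the count of 2 became 1 when thinned before gating, without cycling cells, without Ncr1 cells and with the B-cell level subtracted, and 0 at 2-fold. For DKO over miR-146a-/- there, 2 became 4 with no filter on low values and 1 at 2-fold. In NK cells, WT over young WT, 4 became 2 when thinned and 0 at 2-fold. For miR-146a-/- over WT there, 1 became 0 with the lower limit on features and when thinned, and 2 with no filter, and for DKO over miR-146a-/- 0 became 1 with no filter. In ILC1, miR-146a-/- over WT, 2 became 4 with no filter and 1 at 2-fold, and for DKO over miR-146a-/- 0 became 1 with no UMI of other lineages and 2 with no filter. No paired analysis was possible because each group is 1 library. Genes under 10 CPM, Gzmf first, are limited by depth.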
